A study of Saccharomyces cerevisiae with 12 samples.

Results

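These data compare young *tra1Q3* cells with young *TRA1* cells of budding yeast, *Saccharomyces cerevisiae*, before chronological aging began (day 0). The comparison was set by the genotype and day given in the sample labels and uses 6 of the 12 RNA sequencing libraries of the study, 3 of each genotype. The other 6 libraries come from cells aged to day 3 and serve below only to show whether the leading differences were also present there. Of the 6691 genes in the table, 6126 were tested, namely those that reached 10 counts or more in 3 or more of these 6. Both genotypes are in W303A, a laboratory haploid of mating type a (MATa) whose labelled marker alleles are ura3-1, his3-11, leu2-3, trp1-1, can1-100 and ade2-1. According to the methods of the study, a tagged copy of *TRA1* or *tra1Q3* that carries *URA3* was integrated under selection for *HIS3*, and both strains held a *LEU2* plasmid with *YHR100* (*GEP4*). The same methods place sampling after saturated cultures had been diluted and regrown for a few hours in minus-leucine medium. The labels instead name mid-log growth in synthetic complete medium and another RNA kit, so the exact growth state at harvest is uncertain. Nothing in the labels says whether the 3 replicates were separate cultures. The methods speak only of 3 replicates, while a figure legend of the study calls them biological replicates. The p-values below measure the spread between these libraries.

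Tra1 is a large scaffold protein of the PI3K-related kinase family that lacks kinase activity. It is part of the SAGA and NuA4 coactivator complexes, which acetylate histones, and it contacts transcription activators to bring these complexes to promoters. The *tra1Q3* allele replaces 3 arginines of its PI3K domain with glutamine. They are arginines 3389, 3390 and 3456 of a protein of 3744 residues. The reference codons around them, from the RefSeq R64 genome on the plus strand and with the arginine codons in capitals, are shown to place the change within *TRA1* (chromosome VIII, 302761 to 313995).
First pair, chrVIII:312910-312945: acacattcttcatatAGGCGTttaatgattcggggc
Single codon, chrVIII:313111-313143: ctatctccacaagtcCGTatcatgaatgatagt
Counts do not separate the alleles, so they cannot check the genotype labels. The *TRA1* gene itself held 16098, 15629 and 15505 normalized counts in *TRA1* cells and 23964, 22403 and 22167 in *tra1Q3* cells. These did not overlap, and the log2 fold change of *tra1Q3* over *TRA1* was 0.54 ± 0.044 (SE). The quasi-likelihood test of edgeR gave an adjusted p of 4.57e-09 after the correction of Benjamini and Hochberg, and every adjusted p below comes from the same test.

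The libraries held between 21976131 and 28079682 counts, with similar depth in both genotypes. Normalized counts are given per library of average size among these 6, after TMM scaling of the library sizes. The a1 transcript, which marks cells carrying MATa, is counted in this reference at *HMRA1*. It gave between 1310 and 1382 raw counts in *TRA1* libraries and between 1032 and 1178 in *tra1Q3* libraries, so the labelled mating type was seen in both. *MATALPHA1*, which encodes the activator of alpha-specific genes, was listed at 0 raw counts in all 6, although this reference carries it in near-identical copies and uniquely mapping reads would miss it. *MATALPHA2*, of which the same holds, gave between 66 and 79 raw counts in *TRA1* libraries and between 68 and 103 in *tra1Q3* libraries, and did not pass the test. Replicates 2 and 3 of *tra1Q3* cells stood apart from the other 4 libraries in genes of aged or post-diauxic cells. The median of 10 such markers, as a percent of their mean level in aged *TRA1* cells, was 1.14% and 1.06% in these libraries. It was 0.150% in replicate 1 of *tra1Q3* cells and between 0.311% and 0.452% in the *TRA1* libraries. The summed normalized counts of the 10 markers were 9409 and 8788 in replicates 2 and 3, 2217 in replicate 1, and between 2515 and 3465 in *TRA1* cells. Among the genes described below, those whose difference rests on these replicates are given with their counts in each library, and the count of calls is repeated with replicate 1 as the sole *tra1Q3* library.

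**Figure D1:**
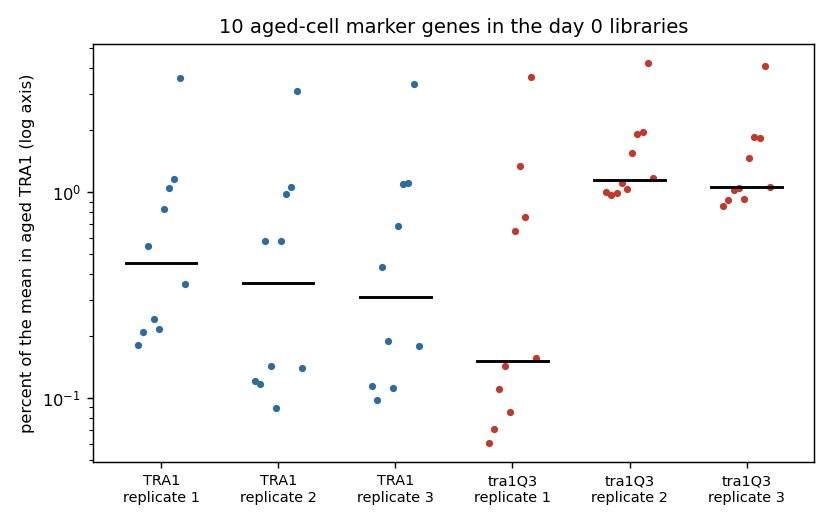
Each point is 1 of 10 marker genes of aged or post-diauxic cells in 1 day 0 library, as a percent of its mean level in aged *TRA1* cells on a log axis, and each bar is the median of the 10. The medians of *tra1Q3* replicates 2 and 3 (1.14% and 1.06%) lie above those of the other 4 libraries, which reach at most 0.452%.

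Young *tra1Q3* cells differed from *TRA1* cells across much of the genome, mostly by small amounts. An adjusted p of 0.05 or less was reached by 4209 genes (68.7% of those tested), of which 2142 (35.0%) were higher and 2067 (33.7%) lower in *tra1Q3* cells. Genes past this threshold are said below to have risen or fallen. Changes over 1 on the log2 scale were found for 372 of them (6.07%), and these are referred to as called. Of the called genes, 203 (3.31%) were higher and 169 (2.76%) were lower. Normalized counts of the 2 genotypes did not overlap for 4378 genes (71.5%). The median log2 fold change over all genes tested was 0.01. Called genes with low counts were mostly higher ones: 73 of the 203 higher genes and 18 of the 169 lower genes had a mean under 100 normalized counts in both genotypes. Among the 5911 genes tested with at least 80% unique windows (100-base windows of the coding sequence found once in the genome), the calls were 147 higher and 164 lower, so the larger number of higher calls was not seen among these. With *tra1Q3* replicate 1 alone against the 3 *TRA1* replicates, 178 of the 203 higher genes and 159 of the 169 lower genes met the thresholds in the same direction, and 3 of the higher genes met them in the other. In that fit the spread comes from the *TRA1* replicates alone and the lone *tra1Q3* library is assumed to vary like them, so it describes this library and does not replicate the calls.

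**Figure D2:**
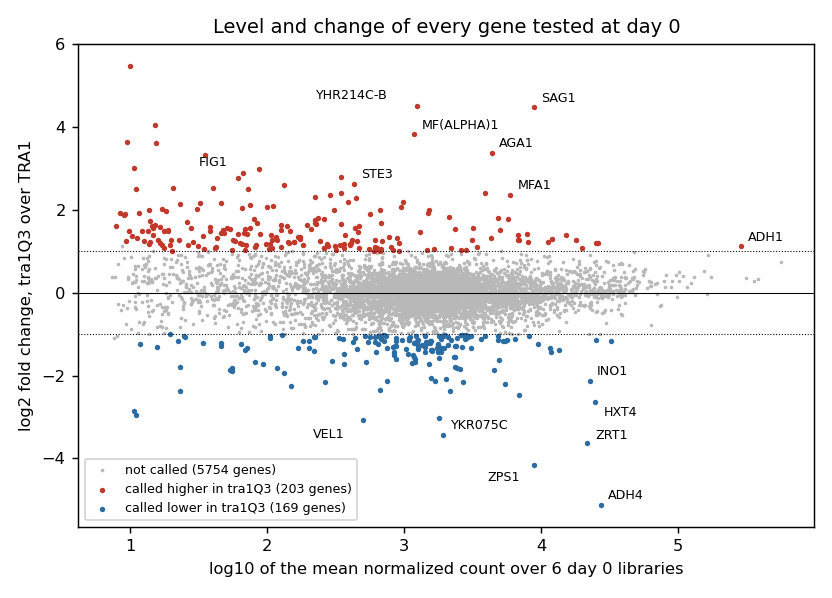
Each point is 1 of the 6126 genes tested, with the log10 of its mean normalized count over the 6 libraries on the x axis and the log2 fold change of *tra1Q3* over *TRA1* cells on the y axis. The 203 genes called higher and the 169 called lower are colored, dotted lines mark log2 fold changes of 1 and -1, and *ADH4* (-5.12) and *SAG1* (4.48) are among the most changed genes.

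Many of the genes that fell furthest in young *tra1Q3* cells, among them 5 of the 12 leading ones, belong to the zinc response. In budding yeast this response is driven by Zap1, a zinc-sensing activator that binds zinc-responsive elements in promoters when cells lack zinc, and that raises genes for zinc uptake, for zinc release from the vacuole and for sparing zinc. Of 21 genes of the Zap1 regulon tested, 18 fell and 1 rose, and 7 were called lower, against 33.7% of all genes that fell and 2.76% called lower. Their median log2 fold change was -0.54, against 0.01 over all genes tested. The largest decrease of the comparison was that of *ADH4* (chromosome VII, 15159 to 16307), which encodes an alcohol dehydrogenase known to be induced by zinc shortage. It held 49142, 55259 and 54578 normalized counts in *TRA1* cells and 1561, 1517 and 1485 in *tra1Q3* cells. Every *tra1Q3* library was far below every *TRA1* library, and the log2 fold change was -5.12 ± 0.059 (adjusted p = 4.61e-21, edgeR). *ZRT1*, the high-affinity zinc transporter of the plasma membrane (chromosome VII, 20978 to 22108), fell from 37635, 40070.4 and 41928 to 3069, 3198 and 3401 normalized counts, a log2 fold change of -3.63 ± 0.055. *ZPS1*, a cell surface protein gene (chromosome XV, 34658 to 35407), held 15606, 18198 and 16559.9 normalized counts in *TRA1* cells and 938, 937 and 942 in *tra1Q3* cells, a log2 fold change of -4.16 ± 0.058. In both genes the groups lay far apart and the 3 *tra1Q3* libraries were close to each other.

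*VEL1* and *YOR387C*, related genes known to be strongly induced by zinc shortage, showed the same direction. *VEL1* held 899, 866 and 921 normalized counts in *TRA1* cells against 103, 88.9 and 128, and *YOR387C* held 3024, 3280.4 and 3299 against 400.2, 420.0 and 357. Their log2 fold changes were -3.07 ± 0.10 and -3.03 ± 0.058. *ZAP1* itself, whose product also activates its own gene, had 1706, 1796 and 1805 normalized counts in *TRA1* cells and 542, 598 and 686 in *tra1Q3* cells, without overlap. Its log2 fold change was -1.54 ± 0.067 (adjusted p = 7.05e-13, edgeR). The low-affinity transporter gene *ZRT2* was the smallest of the called changes of the list, at -1.11 ± 0.043, and its counts were 5088, 4854 and 4855 against 2157, 2322 and 2384. Transporters of inner membranes moved less. *ZRT3*, which exports zinc from the vacuole, had a log2 fold change of -0.31 ± 0.046, and *ZRC1*, which imports it, one of -0.11 ± 0.041. *ZRG17*, of the endoplasmic reticulum, did not pass the test (0.09 ± 0.054). *PIS1*, the phosphatidylinositol synthase gene and also a known Zap1 target, was the member that rose, by 0.11.

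*ADH4*, *ZRT1* and *VEL1* lie close together at the left end of chromosome VII, between bases 11110 and 22108, but the genes among and beside them moved far less. *MNT2*, between *VEL1* and *ADH4*, had a log2 fold change of -0.34 ± 0.041, and *FZF1*, just past *ZRT1*, one of 0.43 ± 0.10. *HXK2*, the next gene inwards, did not pass the test (-0.02 ± 0.044).

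The upstream regions of 4 of the called zinc genes are shown because they hold matches to the zinc-responsive element, the short palindrome bound by Zap1. They are from the RefSeq R64 genome, written 5′ to 3′ on the strand of the gene, with the matches in capitals. The search used the degenerate form of the element on both strands of the 500 bases before each start codon.
*ZRT1*, chrVII:20643-20792, plus strand: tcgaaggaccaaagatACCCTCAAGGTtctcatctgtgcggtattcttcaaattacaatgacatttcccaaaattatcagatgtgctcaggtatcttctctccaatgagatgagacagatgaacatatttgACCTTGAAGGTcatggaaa
*ZPS1*, chrXV:34313-34362, plus strand: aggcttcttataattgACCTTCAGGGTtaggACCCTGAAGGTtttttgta
*ZAP1*, chrX:333184-333233, minus strand: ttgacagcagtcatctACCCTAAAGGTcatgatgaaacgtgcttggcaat
*ZRT2*, chrXII:404308-404387, minus strand: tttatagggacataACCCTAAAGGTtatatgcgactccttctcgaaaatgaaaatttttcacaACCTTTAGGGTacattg
The element was matched upstream of 19 of 6663 nuclear genes (0.285%). It was matched upstream of 8 of the 21 genes of the regulon, namely *IZH1*, *MCD4*, *ZAP1*, *ZPS1*, *ZRG17*, *ZRT1*, *ZRT2* and *ZRT3*. Of the 169 genes called lower, 4 had a match, and of the 192 nuclear genes called higher, 0 had one. A match did not fix the size of the change, since log2 fold changes of the 8 matched members ran from -3.63 for *ZRT1* to 0.09 for *ZRG17*. *ADH4*, *VEL1* and *YOR387C* fell without a match in this window.

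**Figure D3:**
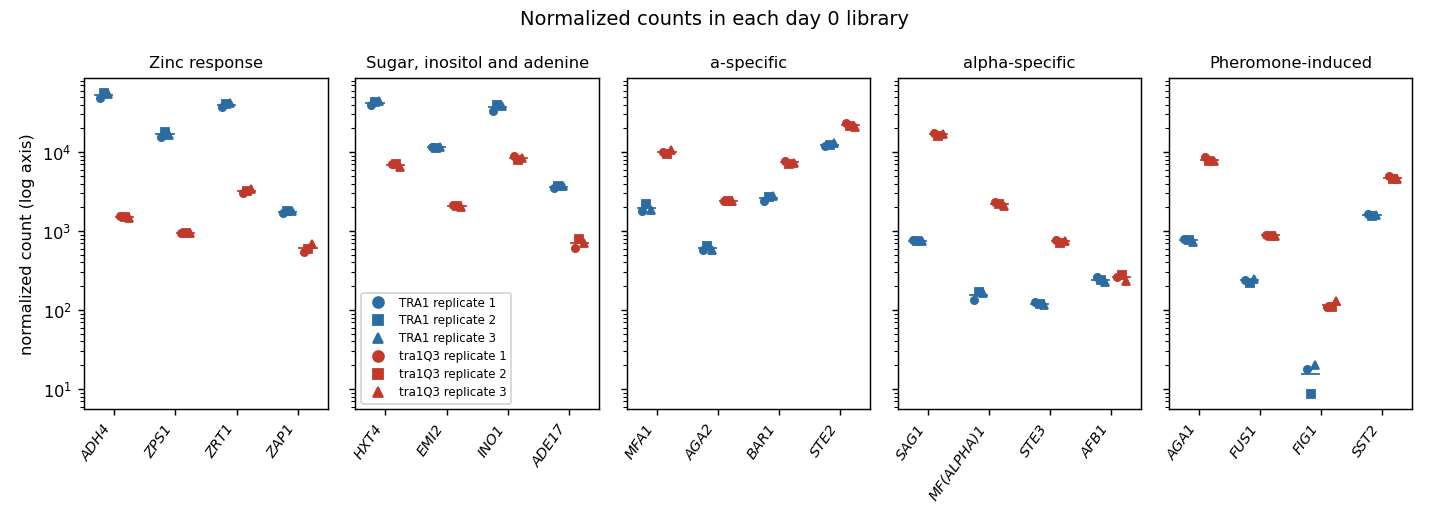
Normalized counts on a log axis for 4 genes of each of 5 groups, in the 3 *TRA1* libraries (blue) and the 3 *tra1Q3* libraries (red) of day 0, with bars at the group means. In every gene drawn except *AFB1* the 3 libraries of 1 genotype lie apart from those of the other, with the widest gaps at *ADH4* and *SAG1*.

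Many of the genes that rose furthest in young *tra1Q3* cells, among them 5 of the 12 leading ones, belong to mating. Haploid yeast of type a secrete a-factor, carry the receptor Ste2 for the alpha-factor of the other type, and bear the Aga1 and Aga2 agglutinin. Cells of type alpha secrete alpha-factor, carry the receptor Ste3 and bear the agglutinin Sag1. Pheromone binding activates a kinase cascade that ends at the activator Ste12. Of 7 a-specific genes tested, 7 rose and 5 were called higher, with a median log2 fold change of 1.50. Of 5 alpha-specific genes, 4 rose and all 4 were called, with a median of 2.63. Of 20 pheromone-induced genes, 15 rose and 1 fell, with 9 called higher, 1 called lower and a median of 0.91. Over all genes tested 35.0% rose and 3.31% were called higher. These counts of called genes were the same after aged profiles had been subtracted from *tra1Q3* replicates 2 and 3. No other library was changed by this subtraction. *BAR1*, *ASG7* and *MFA1* are in both the a-specific and the pheromone-induced list.

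*SAG1*, the alpha-agglutinin gene (chromosome X, 442909 to 444861), showed the largest rise among genes that map uniquely and have at least 100 normalized counts. It held 778, 747 and 746 normalized counts in *TRA1* cells and 17679, 16013 and 16916 in *tra1Q3* cells, a log2 fold change of 4.48 ± 0.052 (adjusted p = 4.61e-21, edgeR). *MF(ALPHA)1*, the main alpha-factor gene (chromosome XVI, 193648 to 194145), had 136, 170.2 and 163 against 2359, 2182 and 2092 normalized counts, with a log2 fold change of 3.82 ± 0.076. For both genes the *TRA1* libraries gave a low but steady count and all *tra1Q3* libraries were more than an order of magnitude above it. *STE3*, the a-factor receptor gene, rose from 125, 119.8 and 114 to 776, 700.4 and 751 normalized counts (2.63 ± 0.093), although it shares coding bases with another gene and the counting ignored strand. The second alpha-factor gene, *MF(ALPHA)2*, had 142, 97.9 and 113 against 419, 387 and 412 normalized counts (1.79 ± 0.12). *AFB1*, an alpha-specific gene for a secreted barrier to a-factor, was the exception, with 262, 240.5 and 225 against 264, 277 and 234 normalized counts and an adjusted p of 0.466 (edgeR). It also overlaps another gene.

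Genes of a cells themselves rose as well. *MFA1*, which encodes a-factor, held 1819.8, 2190.1 and 1831 normalized counts in *TRA1* cells and 10059, 9386 and 10529 in *tra1Q3* cells (2.36 ± 0.062 on the log2 scale). *AGA2*, the binding subunit of a-agglutinin, held 584, 639.7 and 582 against 2409, 2386 and 2437 normalized counts (2.002 ± 0.049). *BAR1*, the protease that degrades alpha-factor, held 2409.7, 2701 and 2756 against 7759.8, 7173 and 7378 (1.50 ± 0.049). These 3 genes more than doubled in every *tra1Q3* library relative to every *TRA1* library. The other a-factor gene *MFA2* and *ASG7* were also called (1.23 ± 0.063 and 1.65 ± 0.11). The receptor *STE2* (0.81 ± 0.047) and the a-factor exporter *STE6* (0.80 ± 0.040) rose by less than the threshold for a call.

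Among pheromone-induced genes, *AGA1*, the cell wall anchor of a-agglutinin (chromosome XIV, 703699 to 705876), led. It held 804, 765 and 721 normalized counts in *TRA1* cells against 8577, 7639 and 7654 in *tra1Q3* cells, a log2 fold change of 3.38 ± 0.055 (adjusted p = 6.57e-19, edgeR). *FUS1*, needed for fusion of mating cells, held 238, 222 and 249 against 897, 877 and 877 normalized counts (1.90 ± 0.074). *FIG1*, a membrane protein of mating cells, had few counts in *TRA1* cells, with 18, 8.56 and 20.4 normalized counts against 109.7, 111 and 129 (2.89 ± 0.23). *PRM6* was rarer still, with at most 2.85 normalized counts in *TRA1* libraries and 23.1, 41.5 and 21.9 in *tra1Q3* libraries, and its log2 fold change of 4.05 ± 0.57 is correspondingly imprecise. It passed the filter on counts only through the *tra1Q3* libraries, so its call higher was favored by the filter. *PRM1*, which acts in membrane fusion, and *PRM5* were called (1.09 ± 0.093 and 1.08 ± 0.043), whereas *FUS2* (0.95 ± 0.10), *KAR4* (0.88 ± 0.063) and *FIG2* (0.84 ± 0.077) rose without reaching the threshold for a call. *PRM4* went the other way, from 529, 481 and 452 to 241, 226 and 207 normalized counts (-1.11 ± 0.098). *PRM2*, *PRM10*, *CIK1* and *ERG24* did not pass the test.

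The signaling genes of the pathway were mixed. Of 18 genes for pheromone signaling and haploid cells, 8 rose (44.4%) and 7 fell (38.9%), near the 35.0% and 33.7% of all genes tested. Of the 18, 1 was called higher and 2 were called lower, against 3.31% and 2.76% of all genes tested. The called riser was *SST2*, which turns the G protein off and is itself a pheromone-responsive gene, with 1648, 1554 and 1585 against 4994, 4613 and 4590.3 normalized counts (1.57 ± 0.043). *GPA1*, the G protein alpha subunit (0.72 ± 0.042), and *STE12* (0.56 ± 0.046) rose by less than 1 on the log2 scale. The kinase genes *STE7* and *FUS3* fell slightly (-0.40 and -0.16), and *STE20* did not pass the test. The called fallers were haploid-specific genes outside the cascade. *RME1*, a repressor of meiosis, held 3462, 3757 and 3647 normalized counts in *TRA1* cells against 988, 1110.1 and 1066 (-1.78 ± 0.048). *HO*, the mating-type switching endonuclease gene, held 1713, 1903 and 1809 against 619, 569 and 588 (-1.61 ± 0.056). The 12 genes for silencing proteins had a median of 0.00, with 4 that rose, 2 that fell and 0 called, among them *SIR2* (0.56 ± 0.071), *SIR3* (-0.47 ± 0.054) and *SIR4* (0.20 ± 0.043). *SIR2* shares coding bases with a neighbor.

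The stretch upstream of *FUS1* is shown because it holds more than 1 copy of the pheromone response element bound by Ste12, searched as TGAAACA on both strands of 500 bases, with matches in capitals (RefSeq R64).
*FUS1*, chrIII:71606-71682, plus strand: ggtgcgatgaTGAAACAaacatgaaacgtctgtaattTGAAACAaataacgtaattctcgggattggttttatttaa
This short element is common. It was matched upstream of 799 of 6663 nuclear genes (11.99%), of 35 of 192 nuclear genes called higher (18.2%) and of 14 of 169 called lower (8.28%). It was matched upstream of 7 of 7 a-specific genes, 2 of 5 alpha-specific genes and 15 of 20 pheromone-induced genes. *SAG1*, *AGA1* and *MFA1* each had 1 match, *BAR1* and *PRM6* each had 2, and *FIG1* had 0.

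Genes for glucose transport and sensing formed another group with large decreases. Yeast adjusts its hexose transporters to the amount of sugar: Mth1 and Std1 hold the *HXT* genes down when glucose is scarce, and the Mig repressors hold genes for other carbon sources down when it is plentiful. Of 19 genes tested in this list, 11 fell and 5 rose, with 4 called lower and 1 called higher, and the median log2 fold change was -0.35. Over all genes tested 33.7% fell, 2.76% were called lower and 3.31% called higher. *HXT4*, a glucose transporter gene (chromosome VIII, 287081 to 288811), held 39379.5, 43181 and 44393 normalized counts in *TRA1* cells and 6983, 7137 and 6384 in *tra1Q3* cells. That is a log2 fold change of -2.63 ± 0.056 (adjusted p = 2.42e-17, edgeR). *MTH1* held 4132, 4385 and 4587 against 898, 1006 and 1038 (-2.16 ± 0.053). The repressor genes *MIG2* (-1.21 ± 0.047) and *MIG1* (-1.05 ± 0.051) were called lower too, although *MIG1* lost its call under upper quartile normalization. Other transporters moved less: *HXT1* and *HXT3* had log2 fold changes of -0.37 and -0.33, and *HXT2* did not pass the test. *HXT10*, with few counts, was the member called higher (1.21 ± 0.19). *HXT6* and *HXT7* are near-identical copies, and *HXT6* fell by 0.91 on the log2 scale with under 80% of its windows unique. Its log2 fold change was -1.40 after subtraction of the aged profiles and -1.19 with *tra1Q3* replicate 1 alone.

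Further down the pathway, 16 of 27 genes of glycolysis and fermentation rose (59.3%) and 9 fell (33.3%), with a median of 0.28. The share that rose was above the 35.0% of all genes tested, and the share that fell was near their 33.7%. Calls were split, with 2 higher and 2 lower, against 3.31% and 2.76% of all genes tested. *EMI2*, a putative glucokinase gene (chromosome IV, 1474974 to 1476476), was the largest decrease of the list, from 11712, 11434 and 11602 normalized counts in *TRA1* cells to 2151, 2102 and 2043 in *tra1Q3* cells (-2.46 ± 0.041). *PYK2*, the minor pyruvate kinase gene, was called lower as well (-1.42 ± 0.053). *ADH1*, the main alcohol dehydrogenase gene of fermenting cells and one whose product carries zinc, rose from 186279, 180374 and 171650.0 to 397316, 393713 and 384117 normalized counts, with a log2 fold change of 1.13 ± 0.047. *ADH1* and *ADH4* thus changed in opposite directions, and neither gene had overlapping groups. *PDC6* was called higher (1.80 ± 0.46), but only replicates 2 and 3 of *tra1Q3* cells were high: it held 71.9, 535 and 485 normalized counts in replicates 1 to 3, against 163, 63.7 and 81.4 in *TRA1* cells. After subtraction of the aged profiles its log2 fold change was 0.06. *GPP2*, a glycerol phosphatase gene outside the list, fell from 8928, 9299 and 8616 to 1976, 1897 and 1929 normalized counts (-2.21 ± 0.043).

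Most genes of 3 biosynthetic pathways fell. For sulfate assimilation and methionine synthesis, 20 of 24 genes fell and 2 rose, against 33.7% and 35.0% of all genes tested. Of the 24, 7 were called lower (against 2.76% of all genes tested) and 0 called higher. Their median of -0.73 was the lowest median of the lists described. *MET14*, the adenylylsulfate kinase gene, held 1531, 1615 and 1584 normalized counts against 545, 600.0 and 562 (-1.47 ± 0.055). *STR3*, a cystathionine beta-lyase gene, had a log2 fold change of -1.32 ± 0.055, and *MET3*, the ATP sulfurylase gene, one of -1.19 ± 0.046. Both S-adenosylmethionine synthetase genes fell, with log2 fold changes of -1.24 ± 0.046 for *SAM1* and -1.18 ± 0.051 for *SAM2*. *SUL1*, a sulfate permease gene, rose (0.87 ± 0.055), while the other permease gene, *SUL2*, fell (-0.92 ± 0.059).

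For inositol and phospholipid synthesis, 15 of 18 genes fell and 3 rose, with 2 called lower and a median of -0.53. By comparison, 33.7% of all genes tested fell, 35.0% rose and 2.76% were called lower. *INO1*, which makes inositol phosphate and is the classic target of the Ino2 and Ino4 activators, held 32726, 39987 and 38068 normalized counts in *TRA1* cells and 8874, 7892 and 8543 in *tra1Q3* cells. The log2 fold change was -2.13 ± 0.065 (adjusted p = 5.18e-15, edgeR), and *INO2* was called lower as well (-1.08 ± 0.086). For purine synthesis, 16 of 23 genes fell and 3 rose, with 4 called lower and a median of -0.31. *ADE17*, which catalyses the last steps to inosine monophosphate (chromosome XIII, 507502 to 509280), fell from 3477, 3696 and 3725 to 607, 788 and 703 normalized counts (-2.38 ± 0.064), while its paralog *ADE16* changed by -0.13 ± 0.040. *ADE1* (-1.29 ± 0.038), *ADE12* (-1.11 ± 0.041) and *ADE2* (-1.09 ± 0.053) were the other called genes, and *ADE2* is mutant in both strains. *IMD2*, on the guanine branch, rose (0.94 ± 0.047).

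Amino acid synthesis went the other way. Of 48 targets of Gcn4, the activator that answers amino acid starvation, 30 rose and 12 fell, with a median of 0.24 and 2 called higher. The matching shares of all genes tested were 35.0%, 33.7% and 3.31%, so the calls lay near the last of these. *SER3*, for serine synthesis, held 3983, 3701 and 3599 normalized counts in *TRA1* cells and 10102, 10007 and 9469.8 in *tra1Q3* cells (1.39 ± 0.045). *GCN4* itself rose (0.77 ± 0.047), though its output is known to be set mostly by translation. Of 28 genes under nitrogen catabolite repression, 16 fell and 6 rose, with a median of -0.25. The amino acid permease gene *AGP1* (-1.33 ± 0.042) and the proline oxidase gene *PUT1* (-1.30 ± 0.088) were called lower, and the proline permease gene *PUT4* rose (0.92 ± 0.060).

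Genes for storage carbohydrates and antioxidant enzymes leaned downwards. The shares of all genes tested were 35.0% that rose, 33.7% that fell, 3.31% called higher and 2.76% called lower. Of 20 trehalose and glycogen genes, 12 fell and 5 rose, with a median of -0.24. The 3 called members all act in glycogen synthesis. *GLG1*, the glycogenin that primes the chain, held 3894, 4079 and 3980.0 normalized counts against 1100.0, 1159.7 and 1072 (-1.84 ± 0.043). The glycogen synthase gene *GSY1* (-1.43 ± 0.041) and the branching enzyme gene *GLC3* (-1.38 ± 0.045) followed. Of 25 antioxidant genes, 17 fell and 4 rose, with a median of -0.18. The peroxiredoxin genes *TSA2* (-1.32 ± 0.061), *AHP1* (-1.15 ± 0.054) and *PRX1* (-1.08 ± 0.045) were the called members. The phosphate regulon lay near the shares of all genes tested, with 8 of 23 genes that fell (34.8%) and 7 that rose (30.4%). Its median of -0.05 turned to 0.01 under upper quartile normalization. *PHO84*, the high-affinity phosphate transporter gene, was called lower (-1.17 ± 0.056). Of 23 iron uptake genes, 14 rose and 4 fell, with 0 called and a median of 0.24.

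Large gene classes tied to growth had small median changes. Of all genes tested, 35.0% rose, 33.7% fell, 3.31% were called higher and 2.76% called lower. Of 138 genes for cytosolic ribosomal proteins, 50 rose (36.2%), 16 fell (11.6%) and 72 did not pass the test. Their median of 0.05 became -0.03 when libraries were scaled by their totals. Of 83 ribosome biogenesis genes, 46 fell (55.4%) and 14 rose (16.9%), with a median of -0.12. No member of these 2 classes was called. Of 36 proteasome genes, 28 fell (77.8%) and 1 rose, with a median of -0.25 and 0 called. For chaperones the counts were 14 that fell and 9 that rose of 30 genes (median -0.08), and for genes of protein folding in the endoplasmic reticulum 10 and 2 of 18 (median -0.13). No chaperone gene was called with all libraries, but 3 were called lower after subtraction of the aged profiles, among them *HSP26* (-1.63) and *SSA4* (-1.16). *HSP26* held 2906, 7549 and 7400 normalized counts in *tra1Q3* replicates 1 to 3, against 8172, 10393 and 9655 in *TRA1* cells. The subtraction was fitted on top of replicate 1, the lowest *tra1Q3* library for both genes, so these calls are not a separate check. Among 22 cyclins and division markers, 17 fell (77.3%) and 2 rose, with a median of -0.31. *CLB1*, a mitotic cyclin gene, held 2942, 2823 and 3121 normalized counts against 1257, 1313 and 1146 (-1.26 ± 0.051), and *CLB6*, an S-phase cyclin gene, was called lower too (-1.17 ± 0.11). In bulk samples, a change in the share of cells in a state and a change of RNA within each cell cannot be told apart.

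Among the subunits of the complexes that contain Tra1, changes were modest. For comparison, 35.0% of all genes tested rose, 33.7% fell and 6.07% were called. Of 19 SAGA genes, 9 rose, 5 fell and 0 were called, with a median of 0.09. The largest rises, apart from *TRA1* itself, were those of *TAF10* (0.61 ± 0.037), a subunit shared with TFIID, and of *ADA2* (0.51 ± 0.057), of the acetyltransferase module. *SPT3*, *SPT7*, *TAF9*, *HFI1*, *SGF73* and *TAF5* rose by between 0.13 and 0.43. The acetyltransferase gene *GCN5* did not pass the test (0.05 ± 0.053), and nor did *SUS1*, *TAF12*, *UBP8* and *SPT20*. The deubiquitinase module gene *SGF11* had the largest decrease (-0.35 ± 0.072), and *SPT8*, *SGF29*, *NGG1* and *TAF6* had log2 fold changes between -0.27 and -0.22. Of 13 NuA4 genes, 7 rose, 0 fell and 1 was called, with a median of 0.18. That gene was *EPL1*, which anchors the catalytic module, with 1878, 1817 and 1844 normalized counts in *TRA1* cells against 3886, 3801 and 3699 in *tra1Q3* cells (1.04 ± 0.038, adjusted p = 7.25e-14, edgeR). With library totals as scale it was at 0.96, under the threshold for a call. *EAF1*, the assembly platform of NuA4, came next (0.97 ± 0.040), and the acetyltransferase gene *ESA1* rose by 0.32. *EAF7*, *ACT1* and *ARP4* rose by between 0.18 and 0.50, while *EAF3*, *EAF5*, *EAF6*, *SWC4*, *YAF9* and *YNG2* did not pass the test. *EAF1* shares coding bases with another gene.

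The marker genes of the 2 strains all fell, against 33.7% of all genes tested. Only *ADE2* passed the threshold for a call, against 2.76% of all genes tested that were called lower. *ADE2*, *URA3*, *GEP4*, *HIS3*, *LEU2*, *CAN1* and *TRP1* had a median log2 fold change of -0.69. *URA3* held 9174, 9883 and 10093 normalized counts in *TRA1* cells and 4979, 5549 and 5106 in *tra1Q3* cells (-0.90 ± 0.048), and plasmid-borne *LEU2* held 44808, 45469 and 44097 against 31807, 31348 and 30590.1 (-0.52 ± 0.042). *GEP4*, carried by the same plasmid and located next to *TRA1*, had a log2 fold change of -0.70 ± 0.038. Their part in any other difference was not tested.

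In 2 groups the differences rested in part on the *tra1Q3* replicates that were high in markers of aged cells. Of 14 genes of the glyoxylate cycle and gluconeogenesis, 12 rose, 0 fell and 3 were called, with a median of 0.68. The shares of all genes tested were 35.0% for a rise, 33.7% for a fall, 3.31% for a higher call and 2.76% for a lower call. With *tra1Q3* replicate 1 alone the median of the 14 was 0.18. Subtraction of the aged profiles left 1 call of the 3. That subtraction was fitted on top of replicate 1, so it is not a separate check. *ICL1*, the isocitrate lyase gene, held 680.5, 1620.1 and 1539.6 normalized counts in *tra1Q3* cells, of which only replicates 2 and 3 exceeded the *TRA1* libraries (868, 610.3 and 720.4). The same held for *MLS1*, a malate synthase gene, with 92.2, 1118 and 994 normalized counts against 233, 96 and 120.2 (2.28 ± 0.52), and for *SFC1*, a mitochondrial carrier gene, with 69.2, 130.4 and 150.1 against 63.6, 73.2 and 72.7 (0.72 ± 0.22). *SIP4*, an activator of gluconeogenic genes, was high in all 3, with 1023, 1077 and 1108 against 277, 273 and 248 normalized counts (2.004 ± 0.070). Of 18 genes of stationary phase, 9 rose and 7 fell with a median of 0.39, which became -0.28 with replicate 1 alone. The calls were 4 higher and 1 lower with all libraries, and 0 higher and 4 lower after subtraction of the aged profiles. *SIP18*, a hydrophilin gene, held 60.9, 1000.5 and 860.2 normalized counts in *tra1Q3* replicates 1 to 3, against 181, 121 and 114 in *TRA1* cells, so that replicate 1 was below every *TRA1* library. *GRE1*, another hydrophilin gene, held 172, 2375 and 2253 against 510.1, 286 and 239 normalized counts, and *SPG4* held 92.2, 711 and 675 against 156, 91.3 and 121. *RGI1*, known for a role in respiratory growth, was called lower and was low in every *tra1Q3* library, with 607, 675 and 603 normalized counts against 2459, 2723 and 3007 (-2.12 ± 0.067).

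Genes of respiration differed by where they are encoded. Among mitochondrially encoded genes 6 of 7 rose and 5 were called higher, against 35.0% and 3.31% of all genes tested. Their median was 1.49, and it was 1.45 with *tra1Q3* replicate 1 alone. The RNA had been enriched with poly dT, and 4 of the 5 called members had means under 30 normalized counts, as *COX2* with 2.85, 3.8 and 13.6 against 27.7, 20.8 and 34 (2.02 ± 0.43). Genes this rare can pass the filter on counts through the genotype in which they are higher, which favors higher calls among them. The fifth, *ATP6*, held 102, 94.1 and 85.3 against 192, 226 and 243 (1.23 ± 0.13). Of the other members with over 100 normalized counts in 1 genotype, *COX1* held 491, 455 and 519 against 959, 924 and 797 and rose by less than the threshold for a call (0.87 ± 0.076). *OLI1* fell, with 90.2, 312 and 143 against 112, 71.5 and 87.7 (-0.99 ± 0.31), although the groups overlapped. Of 41 nuclear genes of the respiratory chain and ATP synthase, 19 fell and 9 rose, against 33.7% and 35.0% of all genes tested. Their median was -0.07.

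**Figure D4:**
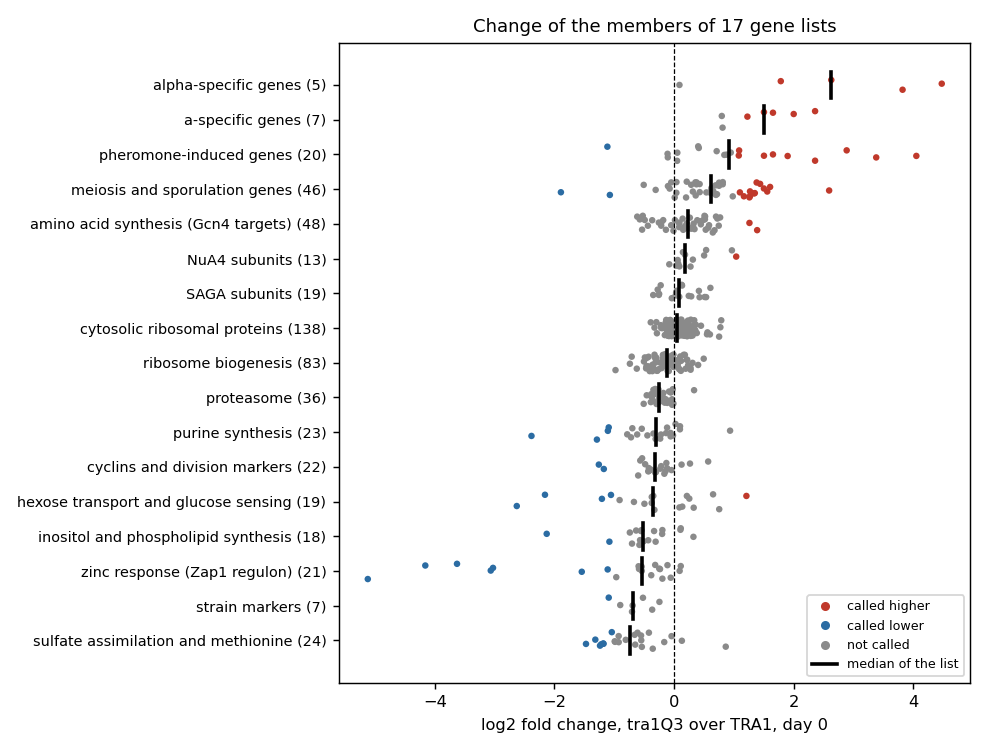
Log2 fold change of *tra1Q3* over *TRA1* cells at day 0 for the tested members of 17 gene lists, 1 point a gene and the number of genes in brackets, with a bar at each median and a dashed line at the median of all genes tested (0.01). Medians run from 2.63 for alpha-specific genes to -0.73 for sulfate assimilation and methionine, with the zinc genes reaching -5.12.

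The 12 leading genes of each direction were taken among called genes whose groups did not overlap and whose mean was at least 100 normalized counts in the higher genotype. Of the remaining leading risers, *TMN2*, an endosomal membrane protein gene, held 1296, 1198 and 1205 normalized counts in *TRA1* cells and 6810.1, 6352 and 6499 in *tra1Q3* cells (2.41 ± 0.044). *CDA1*, a chitin deacetylase gene of the spore wall, held 32.3, 45.6 and 34.9 against 220.4, 215 and 249 (2.59 ± 0.15), and *BSC4* held 18, 20 and 27.1 against 122, 119 and 128 (2.496 ± 0.18). *YHR214C-B*, a Ty gag-pol gene, and the neighboring *YFL064C*, *YFL065C* and *YFL066C* at the left end of chromosome VI have few unique windows, so reads from similar copies cannot be assigned to them with certainty. *YHR214C-B* held 89.3, 108 and 115 normalized counts against 2571, 2359 and 2154 (4.50 ± 0.087). Among leading fallers, *YKR075C* held 3086, 3696 and 3704 against 329, 313 and 328 (-3.43 ± 0.071) but shares 270 coding bases with another gene. *YJR115W* (-2.35 ± 0.072) and *HAB1* (-2.26 ± 0.16) completed the set.

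Among the day 3 libraries, replicate 2 of *TRA1* cells stood apart: its counts differed from those of the other aged *TRA1* replicates by median chi-square ratios of 76.7 and 80.1, against 10.2 between these and at most 4.45 within any other group. The day 3 values below were therefore also computed without it. In aged cells, 1986 of 6208 genes tested (32.0%) were called between the genotypes. All 12 leading risers were also called higher there, and 8 of the 12 leading fallers were called lower, both also without this library. The day 3 log2 fold changes were -4.60 for *ADH4* and -4.26 for *ZPS1* and 4.93 for *YHR214C-B*. *HXT4* and *EMI2* turned around, with day 3 log2 fold changes of 2.22 and 2.35 (adjusted p = 5.88e-05 and 4.87e-06, edgeR), so that both were lower in young and higher in aged *tra1Q3* cells. Their day 0 minus day 3 differences, examined because of this turn, were -4.75 ± 0.24 and -4.72 ± 0.11 (interaction adjusted p = 1.62e-08 and 2.08e-10, edgeR). Without *TRA1* replicate 2 of day 3 these differences were -5.03 and -4.66. *YKR075C* did not pass the test at day 3 with all libraries (0.90) but was called higher without that library (1.51, adjusted p = 9.41e-08, edgeR), and *YJR115W* fell there by less than the threshold for a call (-0.71).

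**Figure D5:**
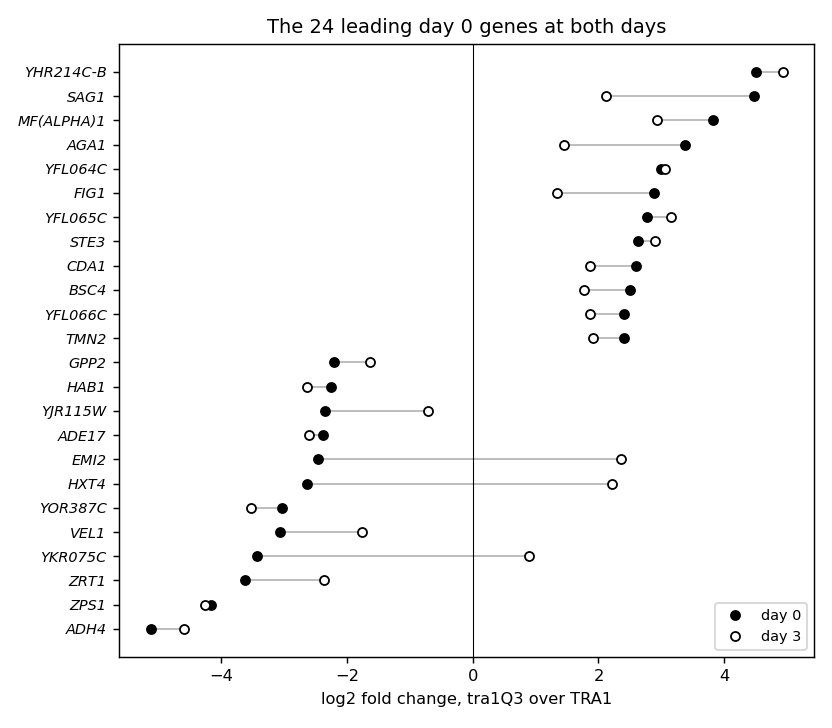
Log2 fold change of *tra1Q3* over *TRA1* cells at day 0 (filled) and day 3 (open) for the 12 genes that led in each direction at day 0. Every riser stays above 0 at day 3, while *HXT4*, *EMI2* and *YKR075C* lie below 0 at day 0 and above 0 at day 3, at 2.22, 2.35 and 0.90.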

How the data were processed

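RNA was sequenced from 3 libraries each of *TRA1* and *tra1Q3* cells at day 0. The files deposited by the authors hold raw counts, made per gene by trimming with Trimmomatic, alignment to S288C R64-2-1 with STAR 2.5.4b and counting of uniquely mapping reads on coding sequences with featureCounts 1.6.0, versions from the submitters' processing notes. The deposited program line sets no strand option and none for overlapping genes, of which there are 1318, so reads from overlaps can be lost and strand was ignored. The columns for pairs and for single reads were added (12.5% to 17.8% single reads at day 0). A nameless entry (0.0851% of counts) was left out.

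Genes with at least 10 counts in 3 of the 6 libraries were tested with TMM, glmQLFit and glmQLFTest in edgeR 4.0.16 (R 4.3.3), with adjustment over all genes. A call needs an adjusted p of at most 0.05 together with a log2 fold change beyond 1 in either direction. The SE is the absolute log2 fold change over the square root of F. Age by genotype interactions used all 12 libraries. Replicates differed by more than counting error (median chi-square ratios of 2.84 to 4.04 at day 0), so none was merged. Unique windows are 100-base windows of a coding sequence found once in the genome. Gene tables and the upstream search used Python 3.11 and the RefSeq R64 genome, to which 6008 of the genes matched.

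The text names the 12 leading genes of each direction, up to 6 members of a list by absolute log2 fold change with a mean of at least 100, and the tested members of the SAGA, NuA4, strain marker and mating-type lists. Members outside this rule (among them *PRM6*, *COX2*, *HXT10*, *MNT2*, *FZF1* and *HXK2*) were chosen after their values were seen. The members and the lists were chosen with earlier results of these data known, and the list of meiosis genes was added after seeing values. Alternatives were other normalizations (DESeq2 1.42.0 size factors, totals, upper quartile), DESeq2, other filters and thresholds, glmTreat, pairs only, a replicate block, each library left out, 1 fit of all libraries, subtraction of aged profiles and *tra1Q3* replicate 1 alone. The subtraction changed only *tra1Q3* replicates 2 and 3. Its shares were fitted on top of replicate 1, so it draws these libraries towards replicate 1. For some genes it went past replicate 1, so it can take away too much. *SIP18* was at -1.50 after subtraction and -1.19 with replicate 1 alone, and *HXT6* at -1.40 and -1.19. The restriction to uniquely mapped, non-overlapping genes and the day 3 fits without 1 *TRA1* library were added after seeing the data. The values of 1 called gene are not reported here. The fit was tested on simulated data.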

Additional observations from a re-analysis of the deposited data

Results flagged for a closer look

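For the 5 leading genes of each direction, the difference between the day 0 and the day 3 log2 fold change was tested as an interaction in all 12 libraries with edgeR's quasi-likelihood test. Over all genes, 4290 of 6247 (68.7%) passed this test. The leading genes were chosen for their extreme day 0 values, and this choice by itself favors larger changes at day 0. Among the risers the change was larger at day 0 for *SAG1* (by 2.45 ± 0.13 on the log2 scale, SE), *AGA1* (by 2.02 ± 0.19) and *MF(ALPHA)1* (by 0.98 ± 0.21), with adjusted p of 3.14e-08, 1.94e-06 and 0.00149. Among the fallers the day 0 minus day 3 difference was -1.17 ± 0.22 for *ZRT1*, -1.21 ± 0.30 for *VEL1* and -4.23 ± 0.46 for *YKR075C*, with adjusted p of 0.000565, 0.00382 and 6.72e-06. The remaining 4 genes (*ADH4*, *ZPS1*, *YHR214C-B* and *YFL064C*) did not pass. Without *TRA1* day 3 replicate 2, which stood apart, the 6 still passed, with differences of 2.37 for *SAG1*, 2.03 for *AGA1*, 0.73 for *MF(ALPHA)1*, -1.15 for *ZRT1*, -0.99 for *VEL1* and -4.86 for *YKR075C*. *YHR214C-B* (-0.56), *ADH4* (-0.22) and *ZPS1* (0.54) then passed as well, with adjusted p of 0.019, 0.0497 and 0.0199, while over all genes 4887 of 6247 (78.2%) passed.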

How the results depend on the processing

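The 372 calls (203 higher, 169 lower) stayed within a range of 322 to 408 under the alternatives for normalization, tool, filter on low counts, aged background and read type. The 322 came from requiring at least 10 counts in all 6 libraries, under which 43 of the higher and 8 of the lower calls were lost. That filter left 161 higher and 161 lower calls. Leaving out each library in turn gave between 367 and 388 calls, of which between 195 and 214 were higher and between 169 and 181 lower. By construction the thresholds moved the counts more: testing against a log2 fold change of 1 with glmTreat left 192 (87 higher, 105 lower), a log2 fold change over 2 left 62 (40 and 22), and no limit on the fold gave 4209 (2142 and 2067). Among mostly unique genes without shared coding bases, 113 were called higher and 147 lower, so that the larger number of higher calls turned around. Scaling moved the median of all genes from 0.01 to -0.08 with library totals and to 0.07 with the upper quartile, and the split of calls to 180 and 210, and to 224 and 146. The replicate block gave 376 calls (204 and 172). Libraries of the same number did not deviate together (correlations of -0.17, -0.088 and -0.15), and the main fit used no pairing. Whether libraries of the same number were grown or prepared together cannot be read from these correlations.

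Signs turned in genes of the aged background. The fits given here are not independent, since the subtraction was fitted on top of *tra1Q3* replicate 1. After subtraction of the aged profiles and with *tra1Q3* replicate 1 alone, the log2 fold changes were -0.093 and -0.107 for *ICL1*, -1.73 and -1.21 for *SPS100*, -0.059 and -0.014 for *SFC1*, -0.49 and -0.41 for *SPG4*, -1.4995 and -1.19 for *SIP18*, -0.34 and -0.70 for *MLS1*, and -1.02 and -1.003 for *GRE1*. *PDC6* was at -0.52 with replicate 1 alone. Depth limits genes near 10 counts, such as *PRM6*, *COX2*, *COX3*, *COB* and *VAR1*.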

Other observations

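Most genes tested of meiosis and sporulation, which haploid cells normally keep low, were higher in young *tra1Q3* cells. Of 46 tested, 34 rose and 4 fell, with 13 called higher, 2 called lower and a median log2 fold change of 0.62. Over all genes tested 35.0% rose and 3.31% were called higher. With *tra1Q3* replicate 1 alone, 11 of the 13 were called higher and *SPS100* was called lower. The list was drawn up after values had been seen, so this is a description. Most members had few counts. *SPS22* held 68.4, 66.5 and 71.7 normalized counts in *TRA1* cells and 183, 218 and 231 in *tra1Q3* cells (1.61 ± 0.14), and *NDJ1*, which tethers telomeres in meiosis, held 329.6, 378 and 367 against 887, 834 and 873 (1.27 ± 0.072). The early regulator *IME1* rose from 148, 124 and 137 to 236, 210.0 and 242 (0.75 ± 0.12), while *NDT80*, the regulator of the middle phase, did not pass the test. *SPO11*, the nuclease of meiotic recombination, fell (-1.07 ± 0.11). *SPS100* exceeded the *TRA1* libraries only in *tra1Q3* replicates 2 and 3, with 95, 954 and 914 normalized counts against 341, 159.7 and 157 (1.56 ± 0.48).

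Repeated elements also leaned upwards, and so did genes near chromosome ends, less so where they map uniquely. Of 50 Ty gag and gag-pol genes tested, 38 rose, 5 fell and 26 were called higher, with a median of 1.03. For comparison, 35.0% of all genes tested rose, 33.7% fell, 3.31% were called higher and 2.76% called lower. However, 49 of the 50 Ty genes have under 80% unique windows, so copies cannot be told apart. *YJR027W*, a gag-pol gene of this kind, held 2619.6, 2577 and 2549.9 normalized counts in *TRA1* cells and 9463, 8098 and 8848 in *tra1Q3* cells (1.77 ± 0.050). Of 88 genes tested within 10 kb of a chromosome end, 44 rose and 18 fell, with 17 called higher, 4 called lower and a median of 0.32. Among the 42 of them with at least 80% unique windows, 5 were called higher and 3 lower. Over all genes with at least 80% unique windows, 2.49% were called higher and 2.77% lower. *AAD15*, at the left end of chromosome XV, held 28.5, 37.1 and 48.5 against 179, 139.6 and 162 normalized counts (2.08 ± 0.18).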
